A study of Homo sapiens with 6 samples.

Results

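Solute carriers are membrane proteins that move amino acids, sugars, ions, metals, nucleotides and organic acids into, out of and within the cell. The genes described here were those whose symbol was SLC, a family number, the letter A and a member number. They were selected on signal: a gene was kept when its brightest probe set had a mean intensity of 64 or more in at least 1 group of arrays. Of 11963 genes measured, 220 had such a symbol and 94 of them were kept. RNA of MDA-MB-231, an established line of breast cancer cells that lacks the hormone receptors and HER2 amplification, was measured on oligonucleotide arrays with 22277 probe sets. The group called baseline held 3 arrays of cells taken at 0 h, named E, 4 and 5. The dinaciclib group was made of 3 arrays of cells taken after 12 h with dinaciclib, an inhibitor of several cyclin-dependent kinases, named F, 4 and 5. All cells grew in RPMI medium with serum, and the drug was added in DMSO. The labels give no dose, do not say whether baseline cells received DMSO, and list no cells kept for 12 h without the drug, so effects of the drug and of 12 h in culture cannot be told apart. Nothing in the labels says that the arrays came from separate cultures, and each p-value here therefore reflects array-to-array spread alone, which may be technical. In bulk RNA, fewer cells of a type and less RNA per cell cannot be told apart.

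The family number groups carriers by sequence, and members of a family often share a kind of cargo. Families at the plasma membrane bring in nutrients and set ion balance, while those of the mitochondrion, the Golgi and the lysosome move metabolites, nucleotide sugars and metals between compartments. Cancer cells are known to depend on several of them, such as the glucose carriers SLC2A1 and SLC2A3, the glutamine carrier SLC1A5 and the cystine carrier SLC7A11. Inhibitors of the kinase CDK9, which dinaciclib also blocks, are known to lower transcription by RNA polymerase II, and transcripts with short lifetimes fall first.

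Median intensities were 53.7, 66.6 and 61.2 on baseline arrays E, 4 and 5 and 43.6, 47.1 and 41.0 on dinaciclib arrays F, 4 and 5, so the dinaciclib arrays were dimmer as deposited. The 18S ribosomal RNA control read 736 and 1155 on the letter-named arrays E and F and between 8273 and 9061 on the 4 numbered arrays, and 1 letter-named array stood in each group. Of 6 markers expected in this line, VIM, CD44, MSN, CAV1 and AXL read at least 3411 on every array and SPARC only 3.39 to 17.1. Among 7 markers expected to be low, GATA3, EPCAM and ERBB2 passed 64 and ESR1, PGR, CDH1 and FOXA1 did not. Of 10 measured markers of leukocytes, endothelium, fibroblasts, liver and blood, 0 passed 64, and their summed intensity was 165 to 227 at baseline and 147 to 184 after dinaciclib.

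Over all 220 solute carrier genes, without the intensity rule, 5 rose and 35 fell at an adjusted p under 0.05 from limma, and 180 did not pass. SLC39A9, SLC25A36, SLC7A11, SLC6A6 and SLC7A2 were the 5 that rose. The share that rose was 2.27%, beside 3.54% of all genes, and the share that fell was 15.9%, beside 16.4% of all genes. Both shares lay near or below the background, so falls were about as common among solute carriers as on the whole array. The median log2 change was -0.40, beside -0.26 over all genes, and 64.5% of solute carrier genes read lower on array F than on array E, beside 58.0% of all genes. Intensities did not overlap between the groups for 80 of the 220 genes. Of the 220, 14 were higher after dinaciclib without overlap, beside 1120 (9.36%) of the 11963 genes. Likewise 66 of the 220 were lower, beside 3671 (30.7%) of the 11963.

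Scaling the arrays in other ways moved the split of solute carriers between rises and falls. Quantile normalization gave 14 rises and 23 falls among the 220, beside 1064 (8.89%) and 1611 (13.5%) of the 11963 genes. Centring each array on its median gave 18 and 20 among the 220, beside 1941 (16.2%) and 1301 (10.9%) of the 11963. Under these scalings the median change of all genes was -0.02 and 0.19, in place of -0.26 as deposited. Medians and changes below are as deposited unless a scaling is named. Median centring moved the change of every gene upward by the same amount, taking SLC12A2 from -0.48 to -0.03. The sign of a negative median given here can therefore depend on the scaling, and not only where it lies near 0. Every count of falls with 1 array left out was below 35: 32 without baseline E, 12 without baseline 4, 14 without baseline 5, 18 without dinaciclib F, 21 without dinaciclib 4 and 16 without dinaciclib 5. Rises numbered 3 without baseline 4 or without dinaciclib 4, and 4 or 5 without any other array. Counts of all genes in these fits are not given here, so the drop cannot be called particular to solute carriers.

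The intensity rule kept 76 genes through both groups, 17 through baseline alone and 1, SLC39A9, through dinaciclib alone. A gene kept through 1 group had to be lower in the other, so 18 genes are given below by their values and log2 differences, with no p. Just inside the threshold, SLC2A8 and SLC67A1 had highest group means of 66.8 and 67.2, with log2 changes of -0.61 and -0.51. Just outside it, SLC4A2 and SLC1A1 had highest group means of 60.5 and 59.2, with log2 changes of -0.27 and -1.79. The 126 genes that were not kept included 2 of those that rose and 8 of those that fell.

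**Figure D1:**
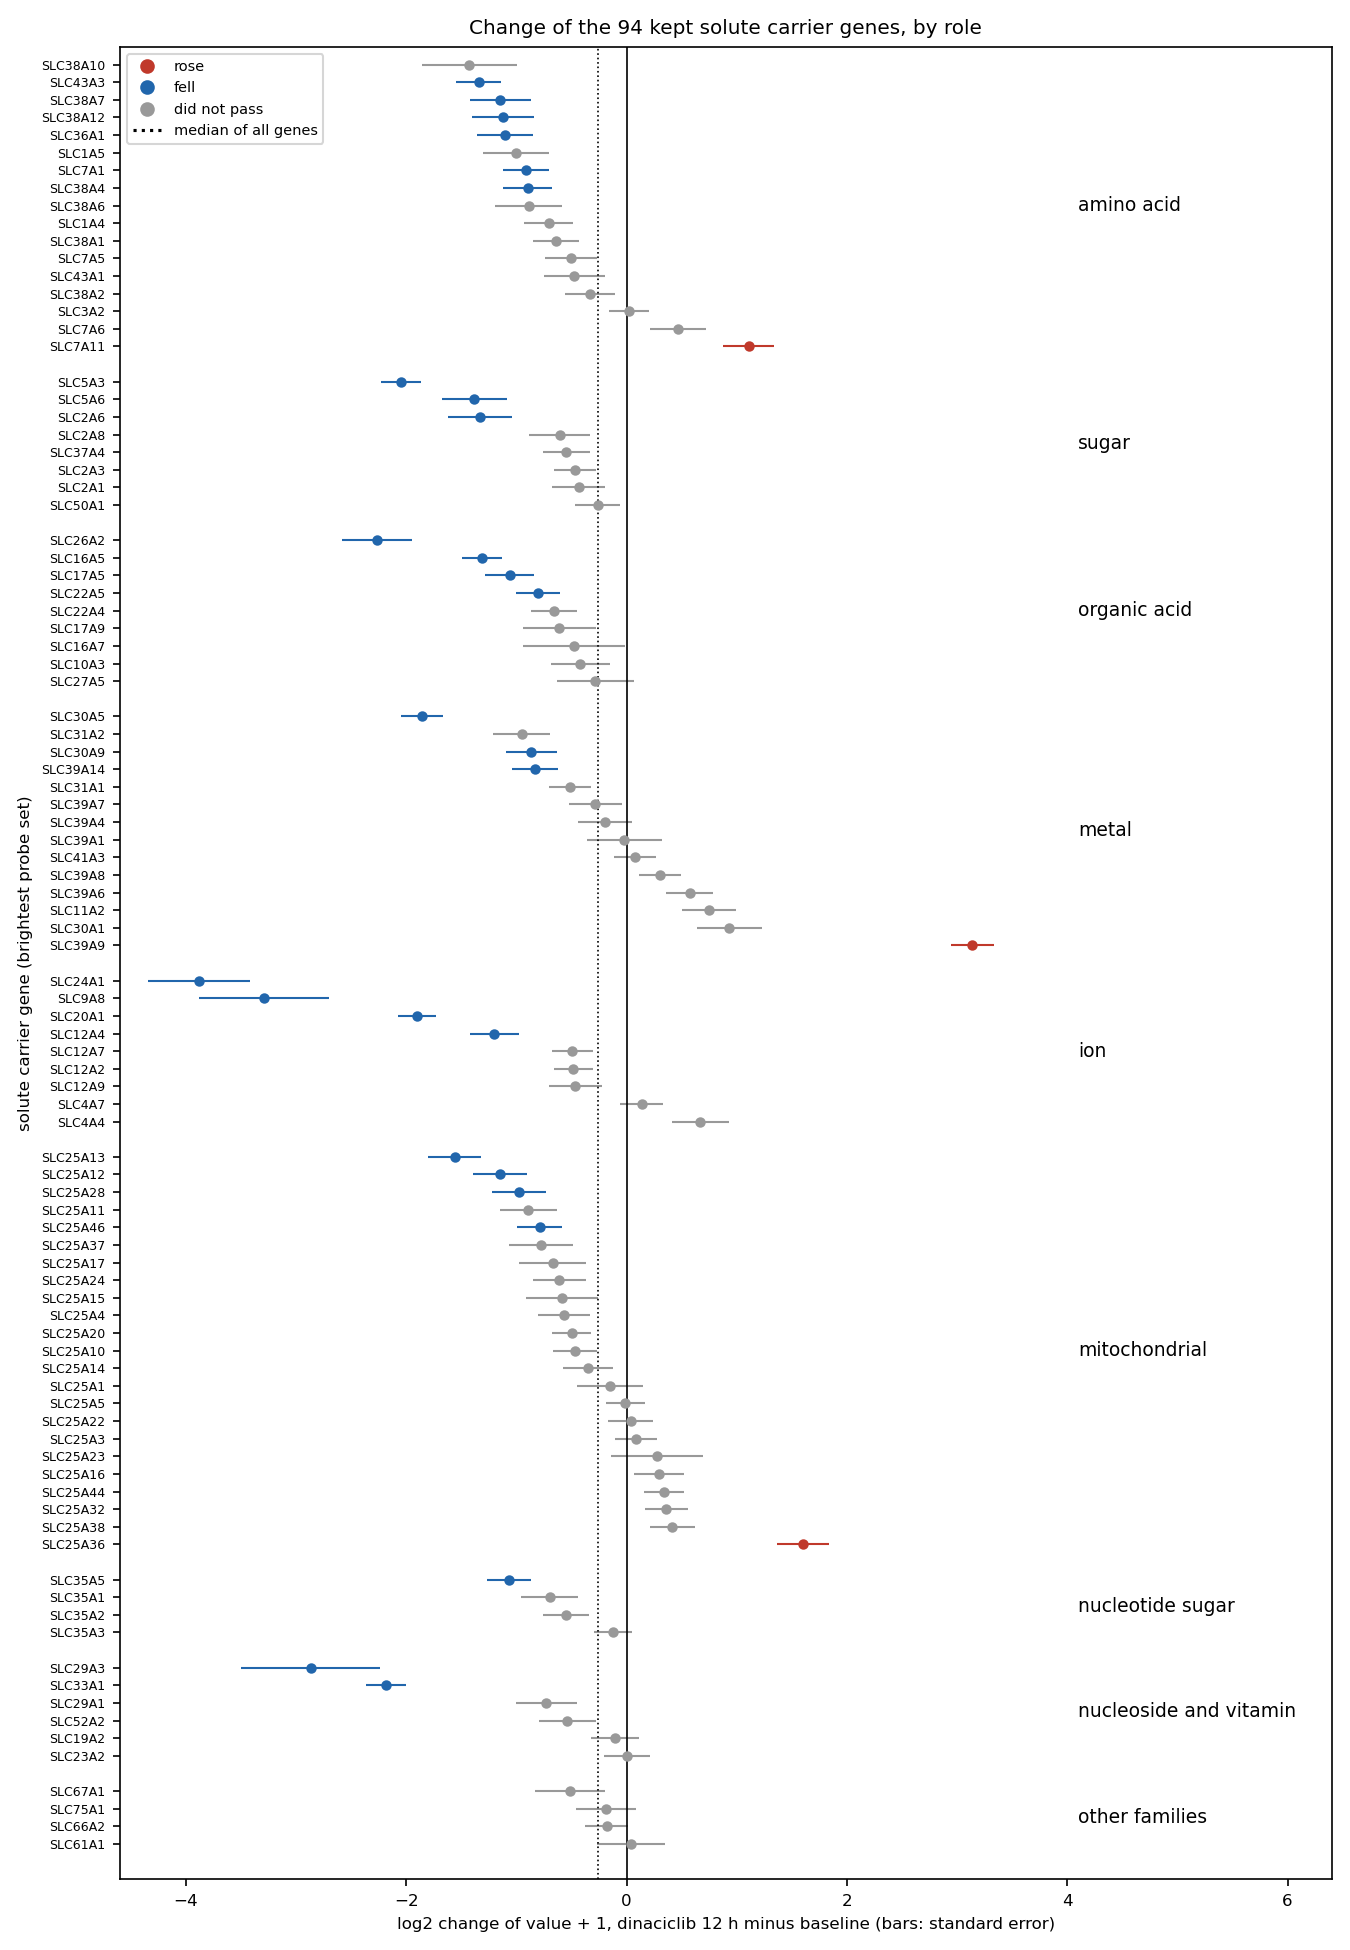
Change of each of the 94 kept solute carrier genes, as log2 of intensity + 1 after dinaciclib minus baseline, with standard errors as bars and genes grouped by role. Red and blue points passed an adjusted p of 0.05, grey points did not, and the dotted line is the median of all genes at -0.26; SLC39A9 lies farthest to the right at 3.14 and SLC24A1 farthest to the left at -3.88.

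Promoter sequence from RefSeq (GRCh38.p14) was at hand for 180 of the 220 genes and for 32 of the 40 that rose or fell. The 5 printed here belong to a zinc carrier and a mitochondrial carrier that rose and to 3 carriers of calcium, phosphate and inositol that fell. Each line gives the 250 bases before the first listed start, 5′ to 3′ along the gene, and SLC39A9 and SLC24A1 had 2 and 3 starts listed. Genes and motifs were chosen after the members' values were seen. Capitals mark matches on either strand to 6 motifs. The TATA box was searched as TATAAA, the CCAAT box by its own letters and the E box as CACGTG. The core of the amino acid response element was searched as TGATGNAA, that of the antioxidant response element as TGACNNNGC and that of the metal response element as TGCNCNC. No marked matches overlap.
SLC39A9: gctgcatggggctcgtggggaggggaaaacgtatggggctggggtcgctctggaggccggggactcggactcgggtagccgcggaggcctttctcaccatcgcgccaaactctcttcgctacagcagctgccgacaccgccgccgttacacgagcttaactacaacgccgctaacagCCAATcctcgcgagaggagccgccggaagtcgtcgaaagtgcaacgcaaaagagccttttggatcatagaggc
SLC25A36: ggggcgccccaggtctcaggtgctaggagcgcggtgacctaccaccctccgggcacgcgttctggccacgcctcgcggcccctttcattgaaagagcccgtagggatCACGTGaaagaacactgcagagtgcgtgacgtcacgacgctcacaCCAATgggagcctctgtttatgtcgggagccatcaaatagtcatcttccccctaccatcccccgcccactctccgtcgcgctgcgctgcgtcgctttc
SLC24A1: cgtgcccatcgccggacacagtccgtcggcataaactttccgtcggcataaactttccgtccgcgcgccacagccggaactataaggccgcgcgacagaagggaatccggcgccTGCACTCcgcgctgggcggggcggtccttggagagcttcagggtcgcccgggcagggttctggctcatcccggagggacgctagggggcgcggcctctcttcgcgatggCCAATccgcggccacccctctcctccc
SLC20A1: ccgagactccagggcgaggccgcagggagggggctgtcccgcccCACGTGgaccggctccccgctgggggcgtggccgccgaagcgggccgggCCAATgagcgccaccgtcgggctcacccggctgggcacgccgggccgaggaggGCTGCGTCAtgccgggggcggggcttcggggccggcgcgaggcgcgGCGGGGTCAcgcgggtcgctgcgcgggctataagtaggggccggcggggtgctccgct
SLC5A3: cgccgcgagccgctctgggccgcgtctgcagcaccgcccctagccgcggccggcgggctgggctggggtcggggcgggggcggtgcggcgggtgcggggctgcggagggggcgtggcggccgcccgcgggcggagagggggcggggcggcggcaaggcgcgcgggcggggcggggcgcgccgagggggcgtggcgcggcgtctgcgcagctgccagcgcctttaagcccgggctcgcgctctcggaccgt

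The SLC39A9 window lies at chr14:69398134-69398383 and that of SLC25A36 at chr3:140941586-140941835. The SLC24A1 window is at chr15:65611100-65611349, the SLC20A1 window at chr2:112645689-112645938 and the SLC5A3 window at chr21:34073328-34073577, and all 5 are on the plus strand. CCAAT began 73 bases before the start in SLC39A9, 98 in SLC25A36, 27 in SLC24A1 and 157 in SLC20A1. CACGTG began 143 bases before the start in SLC25A36 and 206 in SLC20A1, which also held the antioxidant core at 104 and 58 bases. SLC24A1 held the metal core at 136 bases, and the SLC5A3 window, at 84.8% G and C, held none of the 6. Of 27305 promoters of the same length, 33.0% held CCAAT, 6.49% CACGTG, 11.1% TATAAA, 3.19% the amino acid core, 11.0% the antioxidant core and 48.4% the metal core. Among the 180 solute carrier promoters these shares were 35.0%, 8.33%, 9.44%, 3.89%, 13.9% and 53.3%, in the same order. A match is a description of the letters and not of a bound factor.

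Zinc and other metal carriers held both directions. Of 20 measured genes of these families, 1 rose, SLC39A9, and 3 fell, SLC30A5, SLC30A9 and SLC39A14, with a median log2 change of 0.03. These shares, 5% and 15%, lay near the 3.54% and 16.4% of all genes. SLC39A9, a zinc transporter of the ZIP family, read 21.3, 20.3 and 15.7 on baseline arrays E, 4 and 5 and 166, 182 and 176 on dinaciclib arrays F, 4 and 5. Every dinaciclib array was above every baseline array, and the baseline arrays lay well under the threshold of 64. On the log2 scale its means were 4.32 ± 0.22 (SD, n = 3) and 7.46 ± 0.07 (SD, n = 3), a difference of 3.14 with a standard error of 0.20. That difference belonged to 1 of 3 probe sets. A second SLC39A9 probe set read 38.6, 48.4 and 36.8 at baseline and 58.6, 42.1 and 38.4 after dinaciclib, a log2 change of 0.15 that did not pass. The other read between 1.10 and 19.0 on every array, and the mean over the 3 probe sets changed by 1.44.

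SLC30A5, which moves zinc into the Golgi and secretory vesicles, read 615, 748 and 696 at baseline and 190, 206 and 170 after dinaciclib. The groups did not overlap, and the log2 change was -1.86 (standard error 0.19, adjusted p = 0.00383). A dimmer SLC30A5 probe set read 130, 111 and 124 and then 127, 177 and 117, with a change of 0.18 that did not pass, and the mean of both changed by -0.84. SLC30A9, of the same family, read 848, 1200 and 1069 and then 463, 631 and 613, a log2 change of -0.87 (adjusted p = 0.0471). SLC39A14, an importer of zinc and iron, read 1285, 1666 and 1607 and then 800, 982 and 775, a log2 change of -0.83 (adjusted p = 0.0374). In each of the 3 genes that fell, all baseline arrays read above all dinaciclib arrays.

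SLC30A1, the zinc exporter of the plasma membrane, read 487, 967 and 803 at baseline and 1518, 1370 and 1267 after dinaciclib. The groups did not overlap, but the baseline arrays spread widely, and the log2 change of 0.93 did not pass as deposited (adjusted p = 0.0752); it passed after quantile normalization at 1.06 (adjusted p = 0.0232), under median centring, with no dim genes, with a variance trend and with log2(value + 16). SLC39A6, a zinc importer, read 1932, 2558 and 2497 and then 2936, 3955 and 3491, a change of 0.57 that did not pass as deposited (adjusted p = 0.128). It passed in the same 5 alternatives and with the letter batch term, with adjusted p between 0.00867 and 0.0485. Its dimmer probe set rose from 623, 676 and 648 to 1023, 1241 and 1310, a change of 0.87 (adjusted p = 0.028). SLC11A2, the iron importer DMT1, read 315, 413 and 343 and then 682, 693 and 451 on its brightest probe set (adjusted p = 0.0869). A dimmer SLC11A2 probe set rose by 1.24 (adjusted p = 0.0132). MTF1, the transcription factor that responds to zinc and is no solute carrier, read 69.1, 72.4 and 89.4 and then 142, 156 and 119, and rose by 0.84 (adjusted p = 0.0364).

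**Figure D2:**
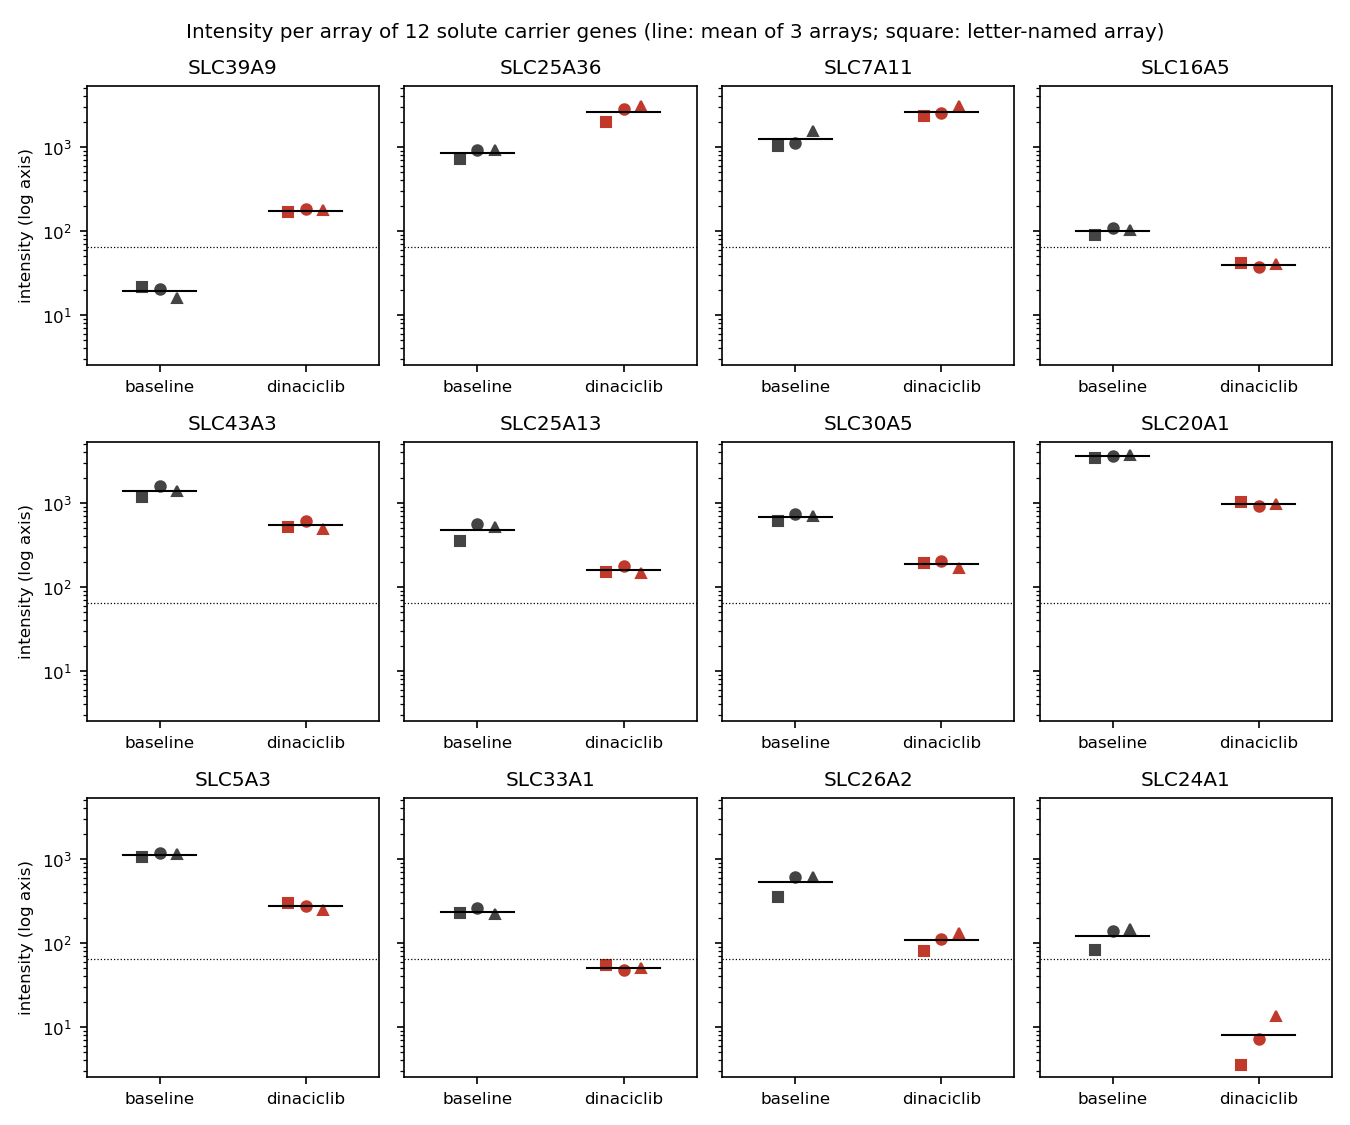
Intensity on each array (log axis) of 12 solute carrier genes, baseline in grey and dinaciclib in red, with the mean of 3 arrays as a line, the threshold of 64 dotted and squares for arrays E and F. SLC39A9, SLC25A36 and SLC7A11 are higher on every dinaciclib array, the other 9 are lower on every one, and all 12 were chosen after their values were seen.

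Mitochondrial carriers of family 25 cross the inner membrane. Of 28 measured genes, 1 rose, SLC25A36, and 5 fell, SLC25A12, SLC25A13, SLC25A21, SLC25A28 and SLC25A46, with a median log2 change of -0.47. The shares were 3.57% and 17.9%, near the 3.54% and 16.4% of all genes. SLC25A36, a carrier of pyrimidine nucleotides, read 717, 933 and 911 at baseline and 2008, 2798 and 3039 after dinaciclib. Array F was the lowest of its group and still lay above every baseline array. The log2 means were 9.73 ± 0.21 (SD, n = 3) and 11.33 ± 0.32 (SD, n = 3), and the change was 1.60 with a standard error of 0.24 (adjusted p = 0.00826). A second SLC25A36 probe set rose by 1.11 (adjusted p = 0.0203), and the other read higher after dinaciclib by 1.25 without passing (adjusted p = 0.0863).

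SLC25A13 and SLC25A12 are the pair of aspartate and glutamate carriers that feed the malate-aspartate shuttle, and both fell. SLC25A13 read 354, 558 and 525 at baseline and 152, 178 and 148 after dinaciclib, a log2 change of -1.56 (standard error 0.24, adjusted p = 0.00904). SLC25A12 read 135, 186 and 175 and then 90.6, 74.6 and 58.1, a change of -1.15 (adjusted p = 0.0236). SLC25A46, an outer membrane protein that shapes mitochondria, read 1271, 1624 and 1789 and then 854, 885 and 953, a change of -0.79 (adjusted p = 0.0434). The groups did not overlap in any of these 3 genes. SLC25A28, an iron carrier kept through baseline alone, read 93.5, 134 and 107 and then 54.4, 69.8 and 45.4. The 2-oxodicarboxylate carrier SLC25A21 was not kept, at 11.3, 24.3 and 26.1 and then 7.10, 7.08 and 8.02.

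The carriers of ADP, ATP and phosphate gave no difference that passed as deposited. SLC25A5, an ADP/ATP exchanger, read 6482, 7578 and 7565 at baseline and 6689, 7442 and 7278 after dinaciclib, a log2 change of -0.01 (standard error 0.18, adjusted p = 0.976). The mitochondrial phosphate carrier SLC25A3 read 6398, 7886 and 8108 and then 7205, 8192 and 8245, a change of 0.08 with a standard error of 0.19 (adjusted p = 0.821). Under median centring SLC25A3 changed by 0.53 and passed (adjusted p = 0.0427). The groups overlapped in both genes. SLC25A4, another ADP/ATP exchanger, read 717, 1025 and 1022 and then 521, 709 and 626, without overlap, and its change of -0.57 did not pass (adjusted p = 0.16).

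Amino acid carriers also held both directions. Of 48 measured genes of these families, SLC7A11, SLC6A6 and SLC7A2 rose and 8 fell: SLC43A3, SLC38A7, SLC38A12, SLC36A1, SLC7A1, SLC38A4, SLC1A1 and SLC3A1. That is 6.25% rising and 16.7% falling, beside 3.54% and 16.4% of all genes. SLC7A11, the light chain of the exchanger that imports cystine for glutathione, read 1038, 1119 and 1556 at baseline and 2323, 2562 and 3042 after dinaciclib. The groups did not overlap, and the log2 means were 10.25 ± 0.31 (SD, n = 3) and 11.36 ± 0.20 (SD, n = 3). The change was 1.11 with a standard error of 0.23 (adjusted p = 0.0231). All 3 SLC7A11 probe sets rose, the dimmest from 26.4, 45.7 and 44.2 to 216, 275 and 333, a change of 2.81 (adjusted p = 0.00436). With arrays left out, the brightest probe set did not pass without baseline E (adjusted p = 0.0548), without baseline 4 (0.0837), without dinaciclib 4 (0.0677) or without dinaciclib 5 (0.0751).

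SLC3A2, the heavy chain that pairs with SLC7A11 and SLC7A5, read 429, 442 and 529 at baseline and 490, 471 and 458 after dinaciclib, a log2 change of 0.02 (standard error 0.18, adjusted p = 0.951). SLC7A5, the importer of large neutral amino acids, read 1602, 2242 and 2593 and then 1373, 1483 and 1603, a change of -0.50 (adjusted p = 0.207). The groups overlapped in both. NFE2L2, a regulator of SLC7A11 that is no solute carrier, read 1610, 2192 and 1995 and then 3792, 4607 and 4477, and rose by 1.16 (adjusted p = 0.0137). ATF4, another such regulator, changed by -0.17 (adjusted p = 0.647).

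SLC6A6, the taurine importer, and SLC7A2, a carrier of arginine and lysine, rose from low levels and were not kept. SLC6A6 read 6.56, 1.58 and 2.22 at baseline and 32.4, 17.7 and 39.5 after dinaciclib, a log2 change of 2.89 (adjusted p = 0.0119). SLC7A2 read 3.57, 12.2 and 24.6 and then 63.2, 55.1 and 44.9, a change of 2.25 (adjusted p = 0.0492). Every dinaciclib value was above every baseline value in both genes, and at such intensities the size of a change depends on the 1 added before the logarithm.

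Among the amino acid carriers that fell, SLC43A3, a nucleobase transporter despite its family, read 1175, 1578 and 1377 at baseline and 520, 610 and 491 after dinaciclib. Its change was -1.34 (standard error 0.20, adjusted p = 0.00876). SLC7A1, the main importer of arginine, read 2334, 3242 and 3135 and then 1465, 1699 and 1429, a change of -0.91 (adjusted p = 0.031). Neither gene's groups overlapped, but 4 further SLC7A1 probe sets did not pass, and the brightest did not pass without baseline 4, baseline 5 or any 1 dinaciclib array. SLC36A1, a lysosomal exporter of small amino acids, read 216, 272 and 345 and then 118, 154 and 111, a change of -1.10 (adjusted p = 0.0293). The glutamate importer SLC1A1, just under the threshold, read 52.4, 70.2 and 54.9 and then 13.3, 15.4 and 21.0, a change of -1.79 (adjusted p = 0.00644). The mean of its probe sets changed by -1.0 and did not pass (adjusted p = 0.0642).

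Family 38 carries glutamine and other neutral amino acids. Of 8 measured genes 3 fell, SLC38A7, SLC38A12 and SLC38A4, all kept through baseline alone, with log2 differences of -1.15, -1.12 and -0.90. The share, 37.5% beside 16.4% of all genes, rests on 3 genes that the intensity rule kept through the group where they are high. SLC38A1, a glutamine importer kept through both groups, read 1511, 1860 and 1609 at baseline and 1146, 1176 and 887 after dinaciclib. Its groups did not overlap, and the change of -0.64 did not pass as deposited (adjusted p = 0.0818). SLC38A2 read 2513, 3068 and 2173 and then 2306, 2111 and 1725, with overlap and a change of -0.33 (adjusted p = 0.376). SLC1A5, the glutamine importer of another family, read 137, 208 and 229 and then 90.8, 122 and 71.8, without overlap, and its change of -1.01 did not pass as deposited (adjusted p = 0.0651). It passed with no dim genes (0.00727), with a variance trend (0.0101), with log2(value + 16) (0.021) and without baseline E (0.0456). SLC38A1 passed in the first 3 of these and after quantile normalization (0.0402).

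Sugar carriers, counted with the sodium-coupled family 5, gave 5 falls and 0 rises among 22 measured genes, and the median log2 change was -0.35. Falls made up 22.7%, beside 16.4% of all genes, and 3.54% of all genes rose. SLC5A3, the importer of myo-inositol, read 1058, 1179 and 1143 at baseline and 295, 275 and 247 after dinaciclib. The arrays of each group lay close together and far from the other group, with log2 means of 10.14 ± 0.08 (SD, n = 3) and 8.09 ± 0.13 (SD, n = 3). The change was -2.05 with a standard error of 0.18 (adjusted p = 0.00325), and a second SLC5A3 probe set fell by 1.86 on the log2 scale (adjusted p = 0.00954). SLC5A6, which imports biotin and pantothenate, read 202, 227 and 226 and then 88.8, 116 and 56.0, a change of -1.38 (adjusted p = 0.0231). SLC2A6, a glucose carrier of lysosomes kept through baseline alone, read 93.4, 145 and 115 and then 62.9, 41.3 and 36.2. SLC2A10 and SLC2A11, the other two that fell, read at most 20.2 on any array.

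The glucose importers most studied in cancer gave no difference that passed. SLC2A1 read 684, 972 and 1138 at baseline and 700, 702 and 624 after dinaciclib, with overlap and a log2 change of -0.43 (standard error 0.24, adjusted p = 0.283). SLC2A3 read 200, 181 and 168 and then 146, 138 and 114, without overlap, with a change of -0.47 (standard error 0.19, adjusted p = 0.158). Under median centring these changes were 0.02 and -0.02. TXNIP, a regulator of glucose uptake that is no solute carrier, read 1636, 1939 and 2103 and then 3000, 3267 and 3114, and rose by 0.73 (adjusted p = 0.0408).

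Ion carriers gave 6 falls and 0 rises among 29 measured genes, with a median log2 change of -0.42. The share that fell was 20.7%, beside 16.4% of all genes. SLC24A1, a sodium, calcium and potassium exchanger best known from retinal rods, read 82.2, 138 and 147 at baseline and 3.55, 7.25 and 13.3 after dinaciclib. Baseline array E was the lowest of its group and dinaciclib array F the lowest of the other, and the groups lay far apart. The log2 means were 6.90 ± 0.46 (SD, n = 3) and 3.02 ± 0.83 (SD, n = 3), a difference of -3.88 with a standard error of 0.46. The fall belonged to 1 of 4 probe sets. The other 3 SLC24A1 probe sets read at most 21.0 on any array and did not pass, and the mean of all 4 changed by -1.27. With 16 in place of 1 added before the logarithm, the difference was -2.51.

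SLC9A8, a sodium and proton exchanger of the Golgi, read 122, 118 and 110 at baseline and 30.0, 8.66 and 4.81 after dinaciclib. The log2 difference was -3.29 with a standard error of 0.59, and array F stood above the other dinaciclib arrays. SLC20A1, a sodium-coupled phosphate importer, read 3471, 3663 and 3758 and then 1018, 921 and 976. Its log2 means were 11.83 ± 0.06 (SD, n = 3) and 9.92 ± 0.07 (SD, n = 3), and the change was -1.90 with a standard error of 0.17 (adjusted p = 0.00336). The second phosphate importer, SLC20A2, read 46.4, 73.6 and 55.9 and then 24.4, 29.7 and 24.2, a change of -1.12 (adjusted p = 0.0225). SLC12A4, a potassium and chloride exporter kept through baseline alone, read 91.4, 95.0 and 73.0 and then 41.5, 40.6 and 29.7. SLC4A8, a bicarbonate carrier, read at most 28.7 on any array. SLC12A2, an importer of sodium, potassium and chloride, read 147, 150 and 171 and then 109, 117 and 108, without overlap, and its change of -0.48 did not pass (adjusted p = 0.113).

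Carriers of organic acids and anions gave 5 falls and 0 rises among 42 measured genes, with a median log2 change of -0.42. At 11.9%, the share that fell lay below the 16.4% of all genes. SLC26A2, the sulfate importer needed for cartilage matrix, read 352, 615 and 613 at baseline and 80.0, 112 and 131 after dinaciclib. Arrays E and F were the lowest of their groups, and the change was -2.26 (standard error 0.31, adjusted p = 0.00683). SLC16A5, of the monocarboxylate family and kept through baseline alone, read 88.8, 110 and 102 and then 41.8, 36.7 and 40.6 on its brightest probe set. A second SLC16A5 probe set read 59.3, 73.5 and 70.6 and then 27.2, 20.7 and 27.3. The lysosomal sialic acid exporter SLC17A5 read 226, 203 and 152 and then 82.2, 91.9 and 100.2, a change of -1.06 (adjusted p = 0.0223). The carnitine importer SLC22A5 read 153, 192 and 185 and then 114, 91.3 and 96.2, a change of -0.80 (adjusted p = 0.0364). The groups did not overlap in these 4 genes, and SLC13A4 fell at 23.7 or less on every array. SLC16A1 and SLC16A3, the lactate carriers, are not analysed here.

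Of 19 nucleoside, vitamin and related carriers 2 fell and 0 rose, with a median log2 change of -0.57. These 2 are 10.5% of the group, beside 16.4% of all genes. SLC33A1, which brings acetyl-CoA into the endoplasmic reticulum, read 229, 258 and 218 at baseline and 54.7, 47.5 and 50.7 after dinaciclib, a log2 difference of -2.18 with a standard error of 0.18. Its second probe set read 143, 224 and 150 and then 24.6, 22.2 and 29.1, so that both fell. SLC29A3, a nucleoside carrier of lysosomes, read 50.9, 83.9 and 91.8 and then 5.44, 26.7 and 4.92, a difference of -2.86 with a standard error of 0.63. The 3 dinaciclib values of SLC29A3 spread widely. SLC29A1, the main nucleoside carrier of the plasma membrane, read 93.1, 141 and 166 and then 67.6, 74.8 and 93.9, with overlap at the edge and a change of -0.73 that did not pass (adjusted p = 0.13).

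Nucleotide sugar carriers supply the Golgi with substrates for glycosylation. Of 4 genes of family 35 with the letter A, 1 fell, SLC35A5, and 0 rose. That is 25% falling, beside 16.4% of all genes, and 3.54% of all genes rose. SLC35A5 went from 482, 636 and 637 to 262, 282 and 285, a log2 change of -1.07 (standard error 0.20, adjusted p = 0.0151). It did not pass without baseline 4 (adjusted p = 0.0617), baseline 5 (0.068) or dinaciclib 4 (0.052). SLC35A3 read 672, 774 and 698 and then 657, 668 and 642 on its brightest probe set, a change of -0.12 (adjusted p = 0.693). A dimmer SLC35A3 probe set rose from a mean of 140 to a mean of 252 over 3 arrays each, without overlap, a change of 0.83 (adjusted p = 0.034), so its probe sets differed in call. All 8 genes of the remaining families, SLC61A1 and SLC67A1 among them, did not pass.

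**Figure D3:**
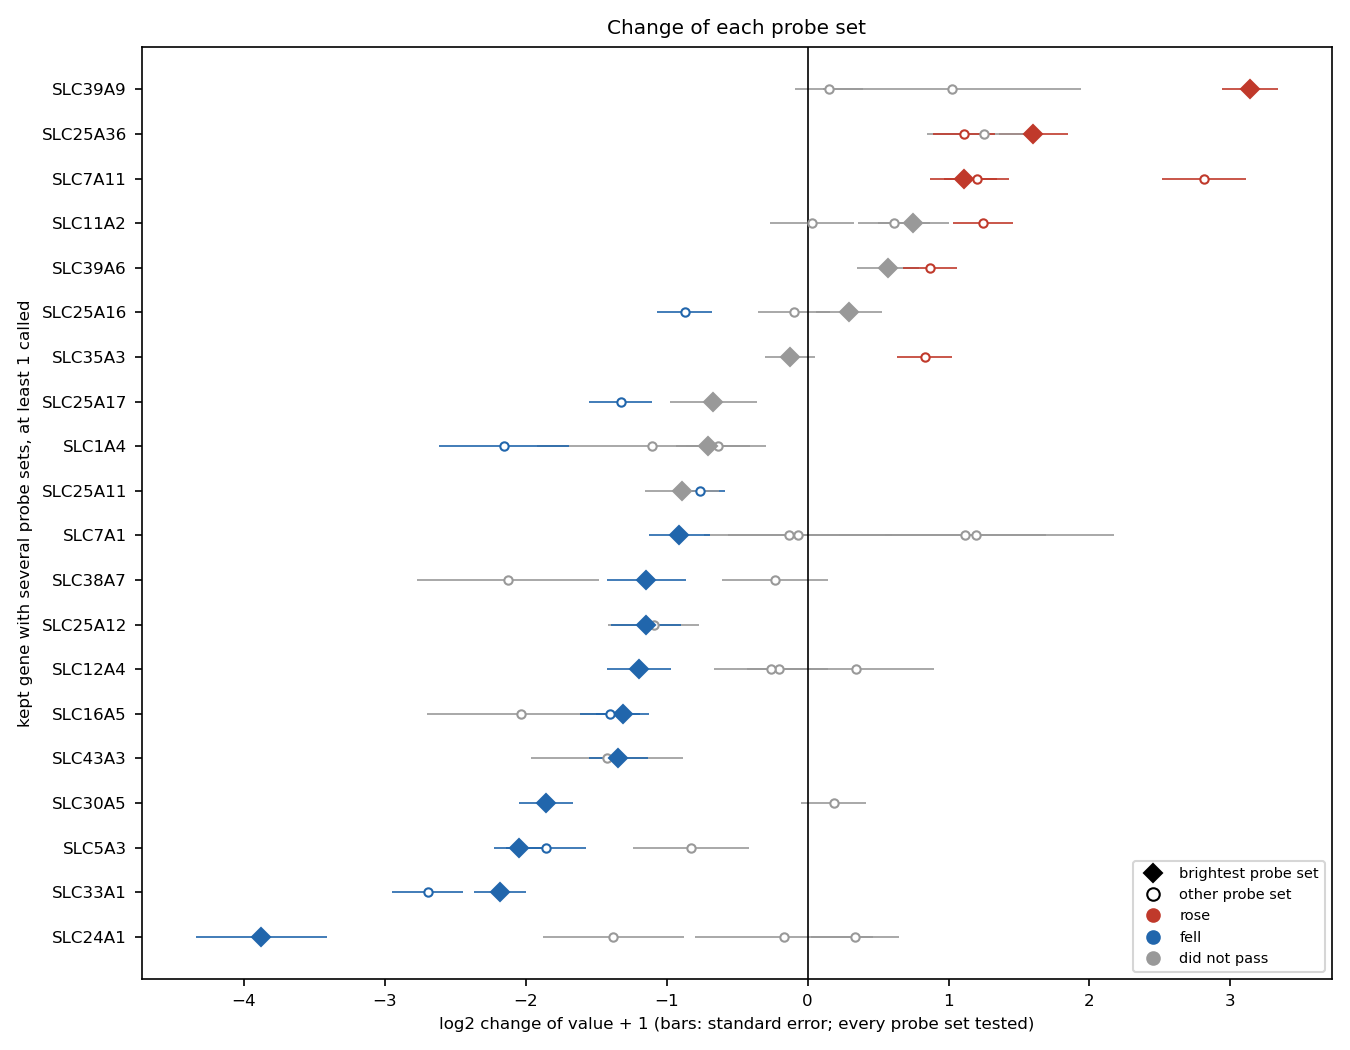
Log2 change of every probe set, with its standard error, for the 20 kept solute carrier genes that had several probe sets and at least 1 past the threshold. Diamonds are the brightest probe set and open circles the others. SLC7A11 and SLC33A1 passed on all of theirs, while SLC39A9, SLC30A5 and SLC24A1 passed on 1. SLC33A1, SLC39A9 and SLC24A1 were kept through 1 group alone, so their calls are not read as support.

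Tested one by one, 340 solute carrier probe sets gave 10 rises and 44 falls. Beside them, 744 (3.90%) and 2671 (14.0%) of the 19064 probe sets with 1 gene rose and fell. Of the 73 genes with several probe sets, 0 had probe sets that passed in opposite directions. SLC7A11 and SLC33A1 were the 2 kept genes whose probe sets all passed one way, and SLC33A1 was kept through baseline alone. In 7 kept genes, SLC11A2, SLC39A6, SLC35A3, SLC1A4, SLC25A11, SLC25A16 and SLC25A17, a dimmer probe set passed and the brightest did not.

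The letter-named arrays E and F stood apart in the ribosomal control, so the numbered arrays were also fitted alone. That fit gave 3 rises and 17 falls among the 220 solute carriers, beside 230 and 1179 among all 11963 genes. All 20 of these solute carriers differed in the same direction between arrays E and F, as did 95.5% of the 1409 genes it called in all. SLC20A1, for example, changed by -1.97 over the numbered arrays and by -1.77 from E to F, and SLC25A36 by 1.66 and 1.49. SLC7A11 did not pass in the numbered arrays alone, at 1.08 (adjusted p = 0.0813).

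Across the 17 alternative analyses other than the replicate block, 11 of the 40 genes passed in every one. That is 27.5%, beside 31.8% of the 2388 genes called on the whole array. In the latter share, genes left out of the fit without dim genes were judged on the other alternatives. The 11 solute carriers were held by every alternative. Of the 11, 4 were kept through 1 group alone and are not read further. The other 7, kept through both groups, were SLC25A36, which rose, and SLC20A1, SLC25A13, SLC26A2, SLC30A5, SLC43A3 and SLC5A3, which fell. Several genes given above with a p were less stable. Of 18 alternatives with the replicate block counted, SLC30A9 and SLC7A1 each did not pass in 10. SLC39A14, SLC25A46, SLC22A5 and SLC36A1 each did not pass in 9, and SLC17A5 in 8. SLC20A2 did not pass in 7, and SLC5A6, SLC25A12 and SLC7A11 each in 6. SLC7A2 did not pass in 8 of the 17 alternatives that held it. Some called genes given above lie outside the naming rule and were named after their values were seen.

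**Figure D4:**
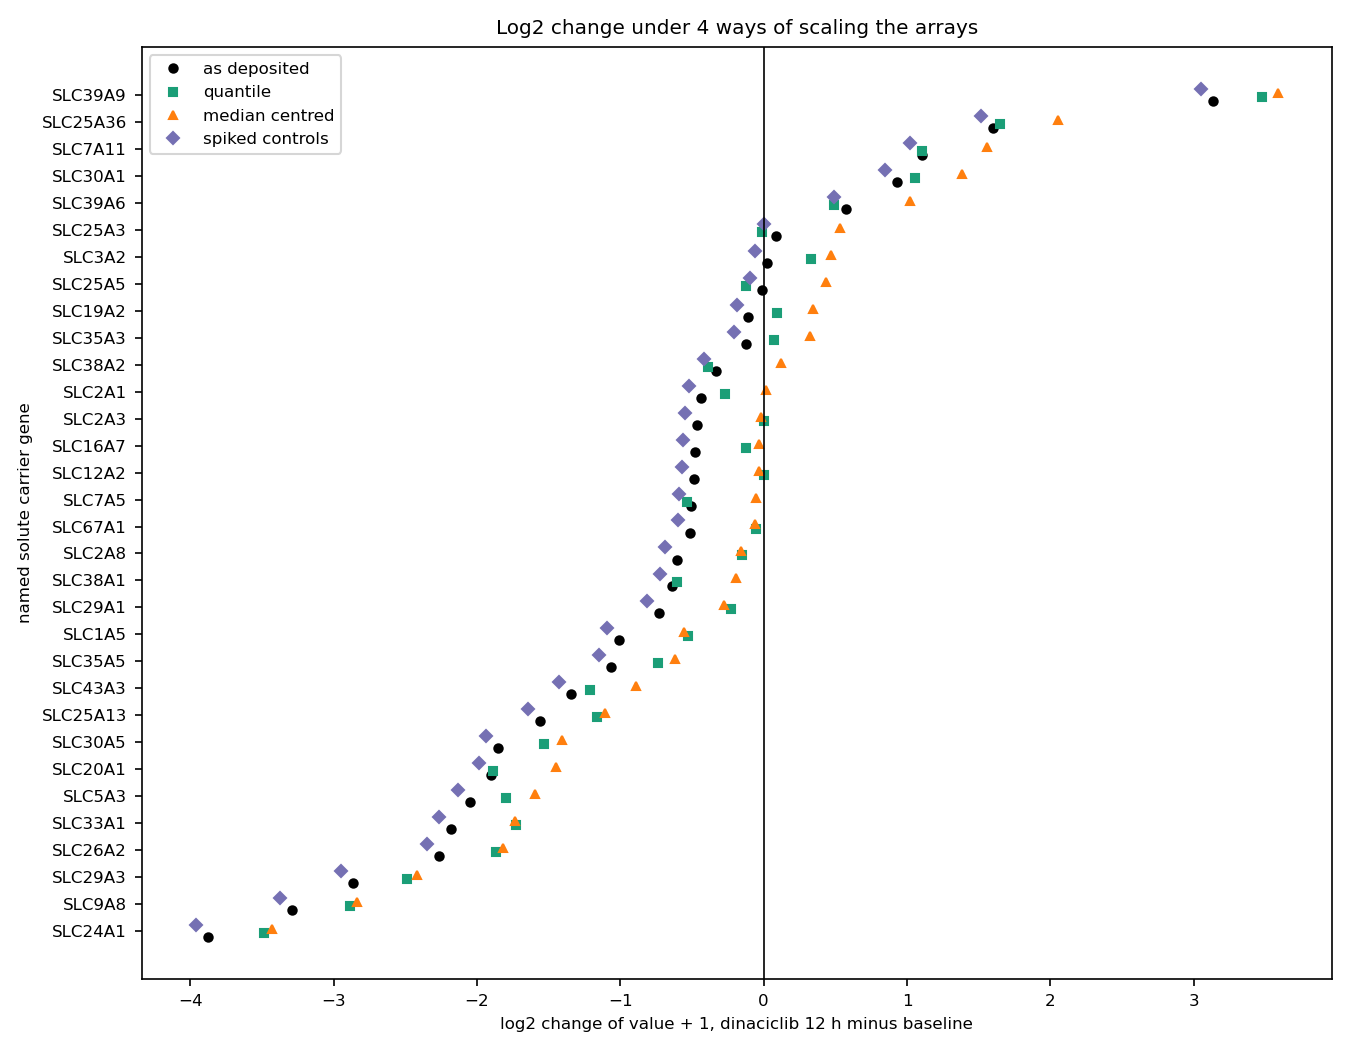
Log2 change of the named kept solute carrier genes as deposited, after quantile normalization, after median centring and after centring on spiked controls. SLC39A9 lies between 3.05 and 3.59 and SLC24A1 between -3.96 and -3.43. Both were kept through 1 group alone and differ on 1 probe set, so these values are not read as support. SLC25A5 and SLC2A1, at -0.01 and -0.43 as deposited, lie above 0 only under median centring, at 0.44 and 0.02.

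Of 35 measured genes for pumps, exporters, channels and regulators outside the name rule, 3 rose and 5 fell. These shares were 8.57% and 14.3%, beside 3.54% and 16.4% of all genes. The 3 that rose were the regulators MTF1, NFE2L2 and TXNIP, and no pump, exporter or channel rose. Other regulators, such as HIF1A at -0.09, did not pass. The copper pumps ATP7A and ATP7B fell by 1.54 and 2.30 on the log2 scale, from 115, 129 and 110 to 34.6, 49.5 and 36.8 for ATP7A and from 37.9, 64.3 and 45.9 to 5.70, 9.39 and 13.4 for ATP7B. The lipid exporter ABCA1, the nucleotide exporter ABCC5 and the organic anion carrier SLCO4A1 also fell, with changes of -1.42, -1.03 and -1.48. Of 13 measured solute carriers whose symbol has another letter than A, SLC35F5 rose and SLC35C1, SLC35E3, SLC35H1 and SLC8B1 fell, which is 7.69% and 30.8%, beside 3.54% and 16.4% of all genes. SLC35F5 read 9.48, 18.2 and 9.99 at baseline and 92.0, 100.9 and 79.0 after dinaciclib, a change of 2.81 (adjusted p = 0.00394). SLC35C1, which brings GDP-fucose into the Golgi, read 80.5, 97.9 and 98.1 and then 51.3, 42.4 and 51.1, a change of -0.92 (adjusted p = 0.0226).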

How the data were processed

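Deposited values were linear intensities, 1 per probe set and array; the file shows this, and the authors' background correction and scaling are not given in the sources used here. Probe sets were named from the platform annotation: 19064 had 1 gene, 1043 several and 2108 none, after 62 controls were left out. All 220 solute carrier symbols matched RefSeq (GRCh38.p14) by gene identifier. The members and lists were chosen with earlier results of these data known.

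Of several probe sets for a gene, the one with the highest mean log2 value over 6 arrays was used. Mean intensity had been run first (2415 genes called, 430 rising); the rule was then set to mean log2, which gave 2388, the count of an earlier analysis. Solute carrier counts were the same under both. Values were tested as log2(value + 1), not normalized further, in limma 3.58.1 (R 4.3.3; functions lmFit and eBayes), adjusted by Benjamini-Hochberg over 15114 rows and called at 0.05. Log2 changes understate those of dim genes, and precision is limited by the number of arrays. The fit was tested on simulated data. Figures used matplotlib 3.10.9 in Python 3.11.15.

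Named genes were up to 8 largest rises and the 8 largest falls of kept genes past the threshold without overlap. Only 3 kept genes rose, so 3 rises were named. The leading members of each role, a fixed set and the genes at the intensity threshold were added. A search for genes correlated with SLC39A9 and SLC24A1 was planned and not run, since the arrays form separate groups. Alternatives were other scalings, a replicate block, a batch term for letter-named arrays, a variance trend, leaving out genes under the 40th percentile of brightness, other probe set rules, log2(value + 16), each array left out, other member rules and, chosen after seeing the data, the numbered arrays alone and the brightest probe set by mean intensity.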

Additional observations from a re-analysis of the deposited data

How the results depend on the processing

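As deposited, 5 solute carrier genes rose and 35 fell. Rises numbered 14 under quantile normalization, 18 under median centring, 8 with a variance trend and 8 with log2(value + 16). Counts of all genes in the last 2 are not given here. Falls numbered 23 under quantile normalization, 20 under median centring and 23 under spiked control centring, beside 1518 of 11963 genes in the last. With a mean of 64 or more over 6 arrays, 3 rose and 23 fell among 86 solute carriers. With 64 or more in at least 1 group, 3 rose and 27 fell among 94. At that threshold 5.43% of all genes rose and 24.3% fell. With array 4 of either group left out rises were 3, the lowest, and the highest was 5 without baseline 5; falls ranged from 12 to 32. The numbered arrays alone gave 3 and 17, beside 230 and 1179 among all genes. The replicate block gave 0 and 0 at 1 residual degree of freedom, and 0 of all genes passed in it. Its unadjusted limma p was under 0.05 in 70 solute carrier genes and 4093 genes in all. Arrays E and F each formed a block of their own in that fit, so only the numbered arrays informed the change. Deviations from the group means correlated at 0.0739 between the arrays numbered 4 and 0.0730 between those numbered 5. Between E and F the value was 0.147. With 3 arrays per group, these values cannot decide whether arrays that share a number were paired. The remaining counts lay within 1.5 times those as deposited. The fit without dim genes held 110 solute carriers in place of 220, and in it 7 rose and 48 fell. Its shares were therefore larger, and its counts over all genes are not given here.

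Named genes that did not pass as deposited passed in 23 values over the alternatives, in SLC39A6, SLC30A1, SLC1A5, SLC38A1, SLC29A1, SLC25A3 and SLC12A2. Changes of sign arose only in named genes that did not pass as deposited. Under quantile normalization these were SLC12A2 (0.0029), SLC19A2 (0.091), SLC25A3 (-0.010), SLC2A3 (0.0022), SLC35A3 (0.073) and SLC4A2 (0.19). Under median centring they were SLC19A2 (0.34), SLC25A5 (0.44), SLC2A1 (0.016), SLC35A3 (0.33), SLC38A2 (0.12) and SLC4A2 (0.18). Spiked control centring gave SLC25A3 at -3.0e-05 and SLC3A2 at -0.060. The mean of probe sets gave SLC35A3 at 0.35. SLC3A2 was at -0.060 in the replicate block and in the numbered arrays alone. With 1 array left out, changes ranged from -0.034 to 0.12 for SLC3A2, -0.024 to 0.15 for SLC25A3, -0.087 to 0.034 for SLC25A5 and -0.65 to 0.032 for SLC4A2. The cause was not tested for any of these. With arrays this few, changes near 1 on the log2 scale lie close to the threshold, and below an intensity of 64 sizes depend on the value added.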
